A study of Mus musculus with 10 samples.

Results

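Fibril-associated and beaded filament collagens were followed through total RNA of the posterior wall of the mouse eye. The 10 genes, of 26360 listed, encode chains of collagens VI (Col6a1, Col6a2, Col6a3 and Col6a6), IX (Col9a1, Col9a2 and Col9a3), XII (Col12a1), XIV (Col14a1) and XVI (Col16a1). They were chosen by name, and all 10 were found. Each averaged 1 CPM (counts scaled to the library total, in the usual CPM unit) or more, so that all 10 were among the 15414 genes tested. The libraries came from 5 wild-type C57BL/6J mice at postnatal day 34, with 5 right eyes and the 5 left eyes of the same animals, numbered 61, 64, 65, 66 and 68. In each animal a plastic goggle with a -20 D lens, used to induce myopia, had covered one eye for 10 days from postnatal day 24, and the other eye stayed uncovered. The labels used here do not say which side carried the lens, so the eyes were grouped by side and a difference between sides has no sign of treatment. The uncovered eye belongs to the same animal as the treated one and is no separate untreated control.

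These collagens do not build fibrils of their own. Collagen VI forms beaded microfilaments that link cells to the surrounding matrix. Its α1, α2 and α3 chains join into one triple helix, and the α6 chain can take the place of α3. Collagens IX, XII, XIV and XVI belong to the FACIT group (fibril-associated collagens with interrupted triple helices), which lie on the surface of fibrils made by other collagens. Collagen IX, built from α1, α2 and α3 chains, sits on collagen II fibrils in cartilage and in the vitreous, and in humans mutations of its genes cause forms of Stickler syndrome, which includes high myopia. Collagens XII and XIV coat collagen I fibrils in tendon, cornea and sclera.

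Depth, read from the step size of low values, was 66.9 to 94.3 M reads per library. Of these 30.6 to 43.6 M fell on listed genes, and 3 reads corresponded to 0.0318 to 0.0448 CPM. The tissue was labelled RPE/choroid/sclera, although the extraction protocol speaks of retinae. All 11 stromal fibroblast markers, all 10 markers of the retinal pigment epithelium (RPE) and all 8 pigment cell markers were above 0 in every library. The stromal markers summed to 7176 to 9966 CPM in right eyes and 6863 to 9901 CPM in left eyes, and the RPE markers to 5332 to 7069 CPM and 5114 to 5780 CPM. Genes of tissues that lie next to the labelled layers varied more. The 18 skeletal muscle markers summed to 3909 to 8134 CPM in right and 2221 to 10402 CPM in left eyes, the 13 surface epithelium markers to 186 to 852 CPM and 375 to 1064 CPM, and the 10 rod markers to 156 to 1967 CPM and 238 to 935 CPM. Of 5 listed adipocyte markers, 4 (Adipoq, Plin1, Cidec and Retn) were at 0 in at least 1 library.

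Per kilobase of transcript, Col12a1 stood at the top in every library and Col6a6 at the bottom. Levels were compared between genes as CPM divided by the length of the principal transcript in kilobases (kb). Col12a1 was at 162 ± 12.9 CPM per kb in right and 146 ± 19.4 CPM per kb in left eyes (SD, n = 5 each). Col6a1 followed at 53.2 ± 3.85 and 53.7 ± 6.94 CPM per kb, beside Col6a3 at 52.1 ± 9.45 and 50.3 ± 4.92 CPM per kb. Col6a2 was at 31.3 ± 3.63 in right and 31.4 ± 3.71 CPM per kb in left eyes, Col16a1 at 29.5 ± 3.84 and 30.02 ± 5.62, and Col9a3 at 30.2 ± 2.71 and 27.6 ± 3.04 CPM per kb. Below them were Col14a1 at 17.8 ± 3.72 and 17.8 ± 2.69, Col9a1 at 3.66 ± 2.57 and 6.43 ± 4.68, Col9a2 at 1.35 ± 0.670 and 2.13 ± 0.815, and Col6a6 at 0.351 ± 0.145 and 0.442 ± 0.171 CPM per kb. In this order Col6a1 was above Col6a3 in only 6 of 10 libraries, Col6a2 above Col16a1 in 7 of 10 and Col16a1 above Col9a3 in 7 of 10, so these neighbours could not be ranked. Every other neighbour in the order kept its place in 10 of 10 libraries. When lengths were taken over all exons of a gene, Col6a2 had 14.9 CPM per kb over the 10 libraries, in place of 31.4, which would set it below Col16a1 and Col9a3 and near Col14a1.

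**Figure D1:**
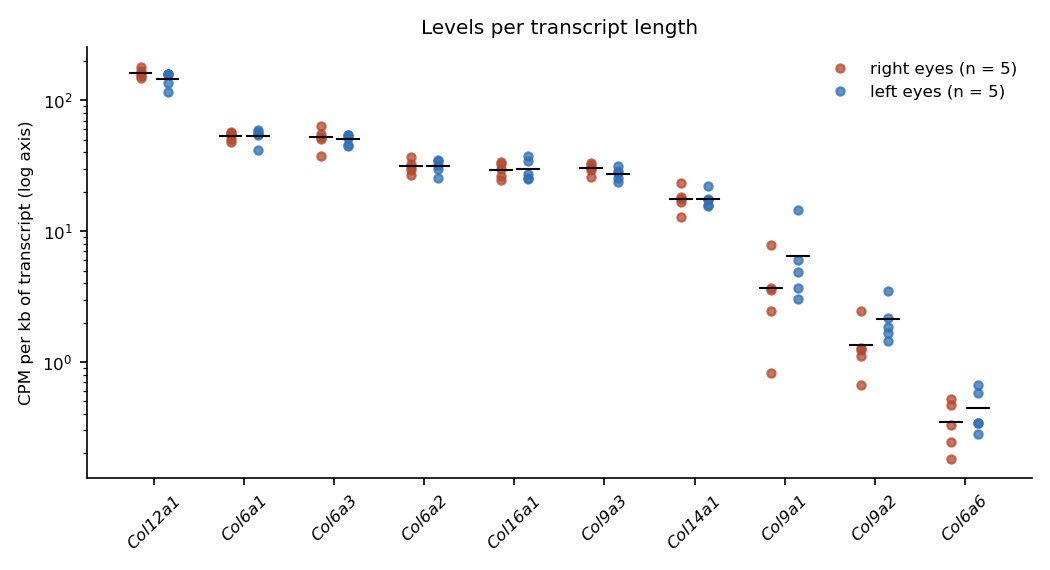
Level of each gene per transcript length, in CPM per kb on a log axis, for 5 right eyes (red) and 5 left eyes (blue). Points are libraries and black bars are means. Col12a1 lies between 117 and 181 CPM per kb, and Col9a1, Col9a2 and Col6a6 are the lowest and the most spread.

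The collagen VI chains of the main trimer were abundant and varied less across eyes than Col6a6, Col9a1 and Col9a2. The SD of the log2 level over the 10 libraries was 0.15 for Col6a1, 0.16 for Col6a2 and 0.21 for Col6a3. The median over all genes tested was 0.16. Col6a1, which encodes the α1 chain (chromosome 10, minus strand, 76708792 to 76726168 in GRCm38), was at 235, 196, 208, 230 and 222 CPM in the right eyes of animals 61, 64, 65, 66 and 68. In the left eyes of the same animals it was at 224, 243, 171, 236 and 227 CPM. The left eye of animal 65 was the lowest library, and the sides overlapped. Col6a2, the α2 chain (chromosome 10, minus strand, 76595762 to 76623630), had 129, 107, 116, 145 and 121 CPM in right eyes and 119, 128, 101, 135 and 138 CPM in left eyes. Col6a3, the long α3 chain with many von Willebrand factor A domains (chromosome 1, 90765923 to 90843971 on the minus strand), had 475, 339, 498, 574 and 459 CPM in right eyes. Its left-eye values were 493, 401, 410, 467 and 492 CPM. For both chains the right eye of animal 66 was the highest library, and the sides overlapped.

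Of the chains of the main trimer, Col6a2 kept close to Col6a1 and Col6a3 less so. The ratio of Col6a2 to Col6a1, each in CPM per kb, was 0.565 to 0.655 in right and 0.546 to 0.628 in left eyes, so that its highest value was 1.20 times its lowest. The ratio of Col6a3 to Col6a1 was 0.785 to 1.14 in right and 0.754 to 1.09 in left eyes, with the highest 1.51 times the lowest, a wider spread than the 1.34 times of Col12a1 to Col6a1. With lengths over all exons the Col6a2 ratio would be lower, since the exons of Col6a2 span 8326 bases together and its principal transcript 3949. Col6a6, the α6 chain (chromosome 9, 105687809 to 105828160 on the minus strand), was scarce, and Col6a3 stood 76.5 to 303 times above it per length. Col6a6 was at 2.17, 2.88, 1.60, 4.14 and 4.60 CPM in right eyes and at 2.45, 5.12, 2.98, 2.98 and 5.85 CPM in left eyes. The highest values were those of both eyes of animal 68 and the left eye of animal 64. The left eyes of animals 68 and 64 also had the largest skeletal muscle sums, 10402 and 9825 CPM, while the right eye of animal 68 was at 4570 CPM. Over the 10 libraries, Col6a6 and the mean of 17 muscle markers had a Pearson's r of 0.72 (Spearman's rho 0.62, and r = 0.38 without the 2 libraries farthest from the median), so the relation rests largely on those libraries. Muscle was not the only list related to Col6a6. The mean of 7 pigment cell markers had an r of -0.66 with it (rho -0.76, and -0.54 without the 2 farthest). Fabp4, the only adipocyte marker tested, had an r of 0.70 (rho 0.68, and 0.53). The mean of the stromal markers had an r of 0.44 (rho 0.59, and 0.63). With the muscle mean as a covariate the log2 difference of Col6a6, right minus left, was -0.21, against -0.33 without it. In these bulk samples, fewer cells of a type and less RNA per cell cannot be told apart.

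Collagen IX joined a steady chain with scarcer and more variable ones. Col9a3 was steady and well expressed, while Col9a1 and Col9a2 were lower and varied widely together. Col9a1, the α1 chain (chromosome 1, 24177610 to 24252684, plus strand), was at 9.40, 29.8, 13.5, 3.14 and 14.2 CPM in the right eyes of animals 61, 64, 65, 66 and 68. In their left eyes it was at 18.6, 14.1, 55.8, 23.1 and 11.7 CPM. The left eye of animal 65 was the highest and the right eye of animal 66 the lowest library, 17.8-fold apart. Col9a2, the α2 chain (chromosome 4, 121039385 to 121055322, plus strand), was at 3.23, 7.22, 3.61, 1.95 and 3.77 CPM in right eyes and at 5.41, 4.91, 10.3, 6.31 and 4.24 CPM in left eyes, with the same libraries at the top and the bottom. Col9a3, the α3 chain (chromosome 2, 180597790 to 180622189, plus strand), was at 97.0, 89.1, 101, 93.0 and 79.5 CPM in right eyes and at 84.8, 77.5, 88.4, 72.9 and 96.5 CPM in left eyes. Its highest library was 1.39 times its lowest, and the 2 libraries at the extremes of Col9a1 were near the middle of the Col9a3 range.

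The collagen IX chains were therefore far from equal per length. The ratio of Col9a3 to Col9a1 in CPM per kb was 3.76 to 37.3 in right eyes (median 9.38) and 1.99 to 10.4 in left eyes (median 5.72). That of Col9a1 to Col9a2 was 1.23 to 3.15 in right eyes and 2.11 to 4.14 in left eyes. Over the 10 libraries the log2 levels of Col9a1 and Col9a2 had a Pearson's r of 0.98 (rho 0.94, and r = 0.93 without the 2 libraries farthest from the median of Col9a1). Col9a1 and Col9a3 had an r of -0.31 (rho -0.55, and r = -0.46 without those libraries). These and all correlations below describe 10 libraries from 5 animals, which share animals and the scaling to the library total, and carry no p.

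The promoter windows of Col9a1 and Col9a2 are shown because these chains varied together, and those of Col6a1 and Col6a2 as the pair of chains with the steadiest ratio of those computed. RefSeq windows (GRCm38.p6, 250 bases before to 50 after a transcript start) matched 7 of the 10 genes, with 9 windows in all. Col9a1 has an upstream start for the long form and, 17593 bases downstream, a start for the short form, which lacks the large N-terminal globular domain and is known from the vitreous. The deposited values are per gene and do not separate these forms. Capitals mark the motifs searched on both strands, which were the GC box GGGCGG, the TATA box TATAAA and the core ACAATG, bound by SOX family factors, with its variant ACAAAG. Overlapping matches are marked as one run.
Col9a1 upstream start, chr1:24177360-24177659, plus strand: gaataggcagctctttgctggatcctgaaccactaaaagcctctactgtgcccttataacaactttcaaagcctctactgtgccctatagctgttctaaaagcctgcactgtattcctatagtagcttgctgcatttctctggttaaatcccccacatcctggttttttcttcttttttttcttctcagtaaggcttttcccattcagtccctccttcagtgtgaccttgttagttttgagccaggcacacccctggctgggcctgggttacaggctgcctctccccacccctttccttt
Col9a1 downstream start, chr1:24194953-24195252, plus strand: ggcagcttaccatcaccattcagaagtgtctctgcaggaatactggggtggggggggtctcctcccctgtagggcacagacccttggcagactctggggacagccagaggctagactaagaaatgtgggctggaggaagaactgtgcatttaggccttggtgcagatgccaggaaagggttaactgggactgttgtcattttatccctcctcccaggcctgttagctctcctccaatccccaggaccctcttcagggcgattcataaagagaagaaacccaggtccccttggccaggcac
Col9a2, chr4:121039316-121039615, plus strand: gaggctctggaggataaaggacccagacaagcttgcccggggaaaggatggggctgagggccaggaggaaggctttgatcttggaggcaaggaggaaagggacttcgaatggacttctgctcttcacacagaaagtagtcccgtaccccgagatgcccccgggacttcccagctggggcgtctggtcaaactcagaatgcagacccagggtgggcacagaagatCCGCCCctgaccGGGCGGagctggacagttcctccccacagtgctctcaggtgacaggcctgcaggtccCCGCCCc
Col6a1, chr10:76725995-76726294, minus strand: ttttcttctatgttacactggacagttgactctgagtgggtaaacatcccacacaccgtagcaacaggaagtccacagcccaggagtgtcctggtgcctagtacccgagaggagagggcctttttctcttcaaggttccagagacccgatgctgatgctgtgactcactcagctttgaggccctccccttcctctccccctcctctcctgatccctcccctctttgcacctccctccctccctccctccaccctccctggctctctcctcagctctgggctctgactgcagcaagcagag
Col6a2, chr10:76623581-76623880, minus strand: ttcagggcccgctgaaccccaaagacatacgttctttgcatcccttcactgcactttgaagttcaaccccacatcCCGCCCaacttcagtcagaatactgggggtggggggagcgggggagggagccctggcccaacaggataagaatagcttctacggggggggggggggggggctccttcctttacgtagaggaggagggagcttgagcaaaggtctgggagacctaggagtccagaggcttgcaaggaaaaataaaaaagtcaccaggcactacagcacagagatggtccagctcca
The Col9a2 window held 3 GC boxes and the Col6a2 window shown, at the start of the deposited gene, held 1, while neither Col9a1 window nor the Col6a1 window held any of the 4 motifs. A second Col6a2 window, at chr10:76623355-76623654 and not printed because it overlaps the first, held 3 GC boxes, 64.3% G or C and 16 CpG pairs. The starts of Col9a2 and Col6a1 in RefSeq lie inside the deposited gene bounds, since the gene models differ. Of 32851 mouse windows of this length, 35.7% held the GC box, 13.6% the TATA box, 12.6% the first SOX core and 18.7% its variant on either strand. The Col9a1 windows also differed in base composition from that of Col9a2, with 47.3% and 55.7% G or C and 0 and 1 CpG pairs, against 61.7% and 10 in Col9a2, where the median of all windows was 52.7% and 7. The windows of the chains that varied together shared none of the motifs searched, which says only that these letters are not in these windows.

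**Figure D2:**
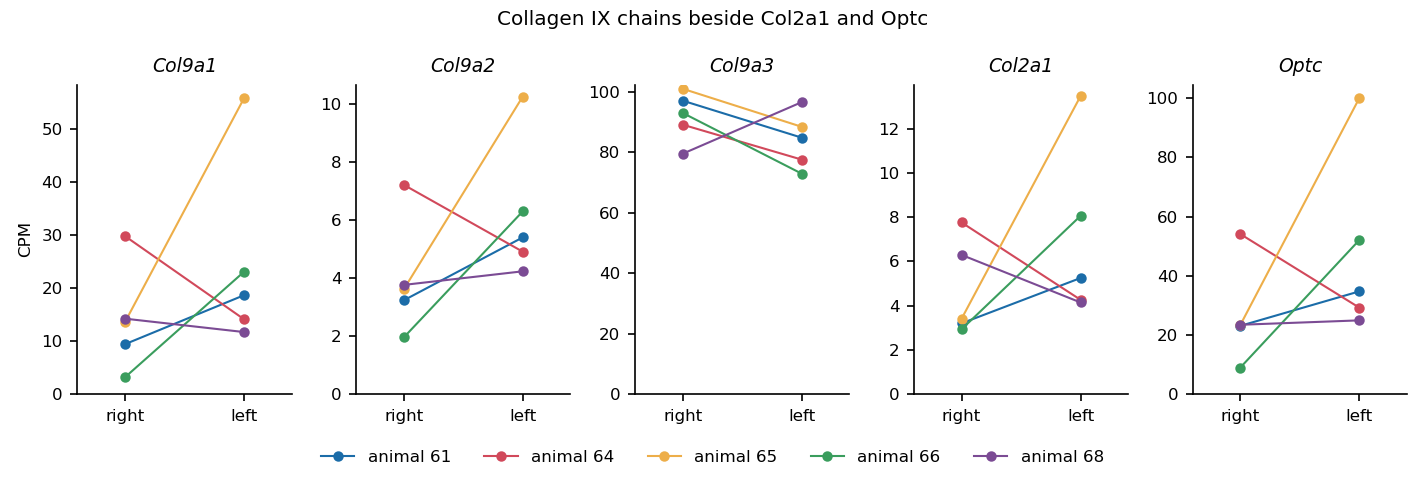
CPM of the collagen IX genes, Col2a1 and Optc in right eyes (left of each panel) and left eyes (right), with a line joining the fellow eyes of 1 animal. Col9a1, Col9a2, Col2a1 and Optc are all highest in the left eye of animal 65 and all lowest in the right eye of animal 66, while Col9a3 stays between 72.9 and 101 CPM.

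Col2a1, the chain of the collagen II fibrils that collagen IX coats, varied with Col9a1 and not with Col9a3. Col2a1 was at 3.19, 7.76, 3.40, 2.92 and 6.29 CPM in right eyes and at 5.25, 4.26, 13.5, 8.06 and 4.14 CPM in left eyes. Its r with Col9a1 over the 10 libraries was 0.89 (rho 0.96, and r = 0.87 without the 2 farthest), with Col9a2 0.90 (rho 0.92, and r = 0.80) and with Col9a3 -0.48 (rho -0.65, and r = -0.57). The mean of 9 tested cartilage markers, Col2a1 among them, had an r of 0.18 with Col9a1, and the 11 listed markers summed to 111 to 152 CPM in right and 111 to 131 CPM in left eyes.

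By likeness of log2 levels among the 9797 genes averaging 5 CPM or more, the genes closest to Col9a1 were Gckr, a glucokinase regulator (r = 0.99), Optc, which encodes opticin, a small leucine-rich repeat protein of the vitreous (r = 0.98), and Crhbp, a binding protein for corticotropin-releasing hormone (r = 0.98). Col9a2 was the fourth. Without the 2 libraries farthest from the median of Col9a1 the 3 values were 0.94, 0.93 and 0.90. Optc was at 23.1, 54.1, 23.4, 8.97 and 23.4 CPM in right eyes and at 34.7, 29.2, 100.1, 52.1 and 24.9 CPM in left eyes. Its order over the 10 libraries was the same as that of Col9a2 (rho 1). Optc is known from the ciliary epithelium, at the front rim of the RPE. A list of 5 ciliary epithelium genes (Optc, Otx1, Msx1, Zic1 and Zic2), drawn up after this likeness was seen, was above 0 in all libraries and summed to 17.0 to 78.8 CPM in right and 37.2 to 127 CPM in left eyes. Since Optc prompted the list, its mean was taken without Optc. The mean of the other 4 genes had an r of 0.79 with Col9a1 (rho 0.78, and r = 0.71 without the 2 libraries farthest in that mean), 0.85 with Col9a2 (rho 0.84, and r = 0.82) and -0.49 with Col9a3 (rho -0.48, and r = -0.16). The list came from the likeness of Optc to Col9a1 in these same libraries, so it is no independent sign of a relation. The mean of 10 rod markers had an r of 0.57 with Col9a1 (rho 0.72, and r = 0.77 without the 2 farthest libraries). Its r was 0.49 with Col9a2 (rho 0.60, and r = 0.81) and -0.48 with Col9a3 (rho -0.52, and r = -0.49). The parts of ciliary and retinal tissue in the collagen IX levels were not tested.

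Col12a1 was the most abundant of the FACIT genes and Col14a1 and Col16a1 were present at moderate levels. Col12a1, the chain of a homotrimer of dense connective tissue (chromosome 9, 79598991 to 79718831 on the minus strand), had 2088, 1699, 1781, 1929 and 1840 CPM in right eyes and 1833, 1846, 1347, 1563 and 1835 CPM in left eyes. The left eyes of animals 65 and 66 were the lowest libraries, and the sides overlapped. Col14a1, the homotrimer also called undulin (chromosome 15, 55307750 to 55520803, plus strand), was at 95.8, 73.3, 99.9, 132 and 103 CPM in right eyes and at 98.9, 99.8, 89.7, 89.1 and 127 CPM in left eyes. Its highest and lowest libraries were both right eyes, those of animals 66 and 64. Col16a1, whose product is found near fibrillin microfibrils in skin and near thin fibrils in cartilage (chromosome 4, 130047840 to 130099283, plus strand), was at 175, 129, 155, 170 and 138 CPM in right eyes and at 196, 143, 130, 134 and 178 CPM in left eyes. Per length, Col12a1 exceeded Col14a1 7.19 to 11.4 times in right and 7.15 to 9.14 times in left eyes, and Col16a1 5.12 to 6.01 times in right and 4.23 to 5.84 times in left eyes. Col6a3, Col9a3 and Col14a1 each overlapped another listed gene, Gm36970, Tcfl5 and Gm18787, but these had means of only 0.776, 0.739 and 0.0127 CPM.

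**Figure D3:**
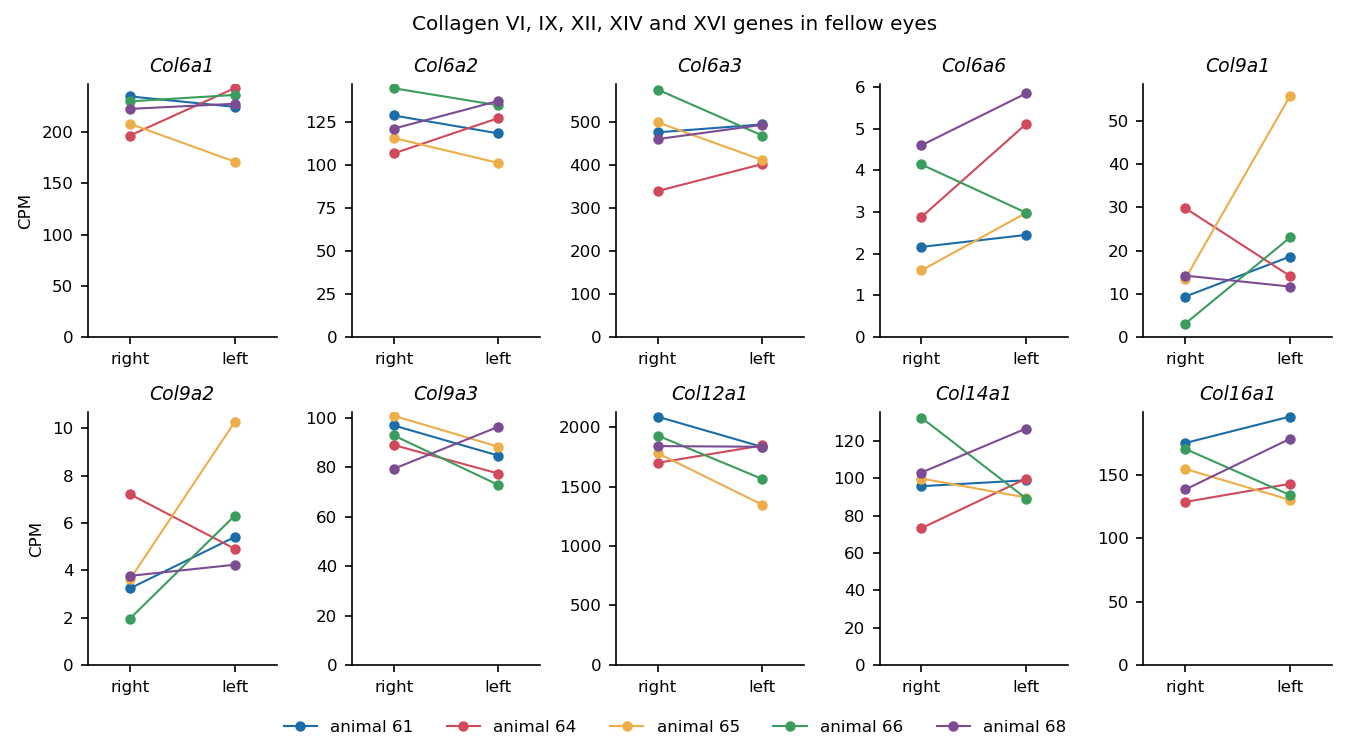
CPM of all 10 genes in right eyes (left of each panel) and left eyes (right), with a line joining the fellow eyes of 1 animal (n = 5 animals). Every vertical axis starts at 0, and the sides overlap in each panel. The lines of Col9a1 and Col9a2 cross most widely.

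The comparison of right with left eyes placed none of these genes past the threshold. Because the labels do not give the lens side, it does not stand for a comparison of lens-covered with uncovered eyes. By limma with the animal as a block, 0 of the 10 genes passed an adjusted p of 0.05 in either direction (adjusted p = 0.9998 for each), beside 0% of the 15414 genes tested in either direction. At an unadjusted p under 0.05 limma counted 0 of the 10 genes and 430 of all genes tested. The median log2 difference of the 10 genes was -0.01, as was that of all genes tested. Of the 10 estimates 3 were above and 7 below 0, beside 7094 above and 8320 below among all genes tested. Col6a1, Col6a2, Col14a1 and Col16a1, among the 7, lay between -0.017 and -0.003. In none of the 10 genes were the 5 values of one side all above those of the other, as they were in 0.214% of all genes tested (0.0779% with right above left and 0.136% with right below left). In 4.44% of all genes tested all 5 animals went the same way, and in none of the 10 genes did they.

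The precision of this comparison was high for 7 genes and lower for Col6a6, Col9a1 and Col9a2. For Col6a1, Col6a2, Col6a3, Col9a3, Col12a1, Col14a1 and Col16a1 the estimates lay between -0.02 and 0.16 on the log2(CPM + 0.230) scale, and the 95% intervals between -0.34 and 0.38. A difference beyond 1.30-fold upward or 1.26-fold downward in right eyes thus lay outside the interval of each of these genes. Col12a1 averaged 1868 ± 149 CPM in right and 1685 ± 223 CPM in left eyes, a log2 difference of 0.16 ± 0.10 (SE), with right above left in 4 of 5 animals. Col9a3 averaged 91.9 ± 8.25 CPM in right and 84.0 ± 9.25 CPM in left eyes (log2 difference 0.13 ± 0.09, SE), also higher on the right in 4 of 5 animals. Without animal 65 the difference of Col12a1 was 0.09, and that of Col9a3 was 0.23 without animal 68 and 0.08 without animal 66. Col6a6 averaged 3.08 ± 1.27 CPM in right and 3.88 ± 1.504 CPM in left eyes (log2 difference -0.33, 95% interval -0.77 to 0.12), with right below left in 4 of 5 animals. Its difference was -0.52 without animal 66, -0.21 without animal 65 and -0.22 without animal 64.

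For Col9a1 and Col9a2 the interval was wide. Col9a1 averaged 14.0 ± 9.87 CPM in right and 24.7 ± 17.9 CPM in left eyes, a log2 difference of -0.89 ± 0.53 (SE) with a 95% interval of -2.13 to 0.35. Its right eye stood at 0.504, 2.11, 0.243, 0.136 and 1.22 times the left eye in animals 61, 64, 65, 66 and 68, so that animals differed in direction. Without both eyes of animal 66 the log2 difference of Col9a1 was -0.41, without animal 65 it was -0.60, and without animal 64 it was -1.38. Col9a2 averaged 3.96 ± 1.96 CPM in right and 6.23 ± 2.38 CPM in left eyes, a log2 difference of -0.67 ± 0.30 (SE) with a 95% interval of -1.38 to 0.04. It was lower in the right eye in 4 of 5 animals, and its log2 difference was -0.44 without animal 66. In their estimates some marker lists ran mostly one way between sides and others were mixed, though no marker passed the test. The estimates were below 0 for 13 of 13 surface epithelium markers (median log2 difference -1.01) and 15 of 17 skeletal muscle markers (median -0.30). They were above 0 for 9 of 9 RPE (median 0.20), 8 of 8 lens (0.24) and 8 of 8 endothelial markers (0.09). They were mixed for stromal fibroblast (8 above and 3 below 0), cartilage (6 and 3), rod (4 and 6) and pigment cell markers (3 and 4). So were smooth muscle (3 and 5) and Schwann cell markers (3 and 4). Markers of a list share the same libraries, so their counts are not independent observations. The lens sum was 863 CPM in the right eye of animal 65. It was 150 to 332 CPM in the other right eyes and 128 to 388 CPM in left eyes. The 5 ciliary genes were all below 0 (median -0.59). Their list came from the likeness of Optc to Col9a1 in these libraries, so this direction is no independent sign. Among all genes tested, 7094 estimates were above and 8320 below 0. The part of these tissues in the differences of Col9a1 and Col9a2 was not tested. The 95% intervals of both genes reached beyond a 2-fold decrease, so these libraries could not tell a difference of that size between sides from none.

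**Figure D4:**
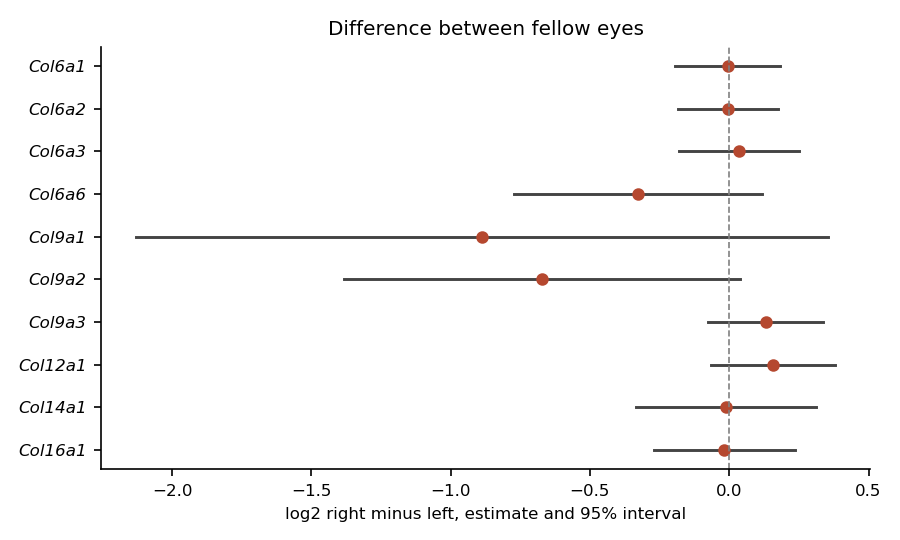
Estimated log2 difference, right minus left, of each gene (red point) with its 95% interval (grey line) from limma with the animal as a block, 5 animals. All 10 intervals include 0, and those of Col9a1 and Col9a2 are the widest.

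Animals were compared with each other against the spread of fellow eyes, as the design has both eyes of 5 mice. Limma's moderated F test of the animal terms called 0 of the 10 genes (adjusted p = 0.606 to 0.872). It called 0.0843% of all genes tested, or 13 genes (5 to 10 genes with 1 animal or library left out). Of the 13 genes, 4 were Y-linked, and Xist, Kdm6a and Eif2s3x lie on the X chromosome. The model held no term for sex, so a difference of sex was not separated from other differences between animals. At an unadjusted p under 0.05 the F test counted 1 of the 10 genes, Col6a6, and 1113 of all genes tested. For Col6a6 the SD of the animal means was 0.49 on the log2 scale and that of the right minus left differences 0.52 (F = 5.31). For Col9a1 the SD of the animal means was 0.64 and that of the fellow-eye differences 1.59 (F = 1.17). A mean of both eyes varies less than their difference even where animals do not differ, so these SDs cannot be compared directly. Over all 10 libraries the SD of the log2 level was 1.07 for Col9a1, 0.64 for Col9a2 and 0.55 for Col6a6, above that of 99.2%, 96.5% and 95.3% of genes tested. It was 0.15 to 0.24 for the other 7 genes, and the median over all genes tested was 0.16.

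**Figure D5:**
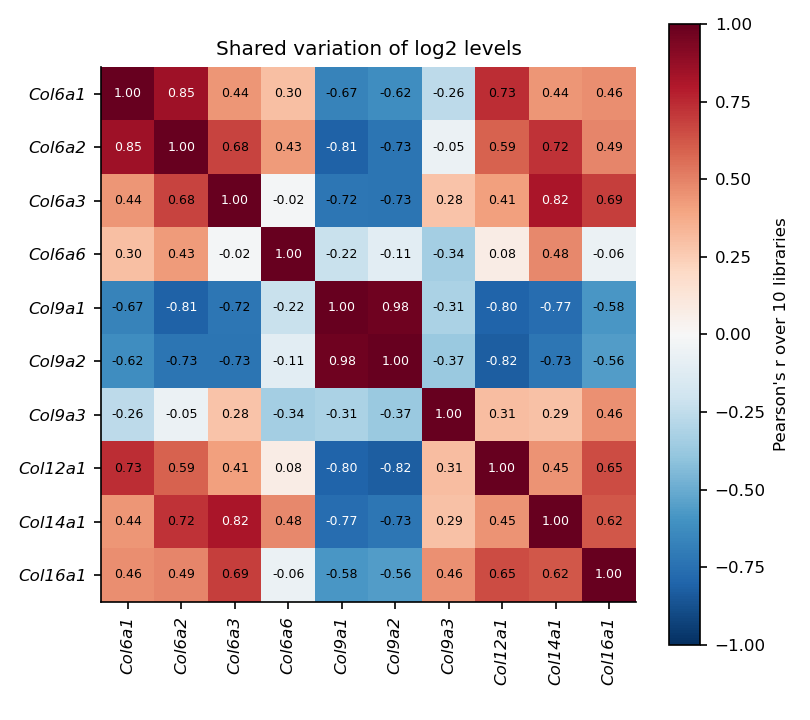
Pearson's r of log2(CPM + 0.230) over the 10 libraries for each pair of the 10 genes, in colour and as printed values. Col9a1 and Col9a2 are positively related to each other (0.98) and negatively to every other gene, and the collagen VI chains Col6a1 and Col6a2 reach 0.85.

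Col9a1 and Col9a2 ran against the FACIT genes Col12a1, Col14a1 and Col16a1. Over the 10 libraries the r of Col9a1 was -0.80 with Col12a1 (rho -0.84, and r = -0.81 without the 2 libraries farthest in Col9a1), -0.77 with Col14a1 and -0.58 with Col16a1. With the mean of the 11 stromal fibroblast markers, Col6a2 had an r of 0.94 (rho 0.94, and 0.86 without the 2 farthest), Col14a1 0.82 (rho 0.66, and 0.72) and Col9a1 -0.79 (rho -0.61, and -0.57). Col6a3 had an r of 0.80 with it (rho 0.44, and 0.53), and Col6a1 0.78 (rho 0.66, and 0.25), so that of Col6a1 rests on those libraries. With the mean of 9 RPE markers, Col9a1 had an r of -0.78 and Col9a2 of -0.83, and Col9a3 one of 0.63 (rho 0.61, and 0.44). The part of tissue content in these relations was not tested. Col6a1 and Col6a2 had an r of 0.85 (rho 0.77, and 0.56), Col6a1 and Col6a3 one of 0.44 (rho 0.13, and -0.42), and Col6a3 and Col14a1 one of 0.82 (rho 0.62, and 0.38).

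The genes closest in level were also ranked for Col6a1, Col12a1, Col14a1 and Col16a1. Closest to Col6a1 were Zfand2a (r = 0.95), Cacul1 (0.95) and Arrb2, a β-arrestin (0.92), with Col6a2 in place 23 and Col6a3 in place 2317. Closest to Col12a1 were Sec23a, a coat protein of vesicles that leave the endoplasmic reticulum (r = 0.95), Rasa3, a GTPase-activating protein for Ras proteins (0.93) and Cyp4b1, a cytochrome P450 (0.92). Closest to Col14a1 were Lama2, the laminin α2 chain (r = 0.96), Hmcn2, a hemicentin of the extracellular matrix (0.94), and Derl2, a protein of the endoplasmic reticulum (0.94), with Col6a3 in place 44. Closest to Col16a1 were Cd34, a surface sialomucin (r = 0.95), Lims1, an adaptor at focal adhesions (0.94), and Mkx, a homeobox factor of tendon (0.92). Without the 2 farthest libraries these values lay between 0.69 for Zfand2a and 0.95 for Lims1.

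No partner gene of these collagens passed the comparison of sides. Among other non-fibrillar chains (collagen VI and FACIT chains with collagens VII, XV and XVIII), 0 of 6 tested passed in either direction, and their median log2 difference was -0.15. Col18a1, a chain of basement membrane zones, was at 138 ± 22.4 CPM in right and 152 ± 24.4 CPM in left eyes, and Col15a1 at 19.2 ± 5.25 and 19.2 ± 4.44 CPM. The remaining collagen VI chains, named here outside the rule for named genes, were low, with Col6a5 at 6.63 ± 3.598 CPM in right and 7.57 ± 2.44 CPM in left eyes and Col6a4 at 0.0980 ± 0.0644 and 0.162 ± 0.0874 CPM, near the level of 3 reads. Of 11 fibril-forming chains 0 passed (median log2 difference 0.00). Col1a2 and Col1a1, the chains of collagen I fibrils, differed by 0.04 ± 0.11 and 0.00 ± 0.11 on the log2 scale (SE). Of 10 collagen receptors 0 passed (median -0.03), led in CPM by Itgb1, the β1 integrin chain, at 161 ± 10.9 CPM in right and 159 ± 12.1 CPM in left eyes, and Ddr2, a collagen-binding receptor kinase, at 144 ± 16.5 and 146 ± 8.94 CPM. Cspg4 and Antxr1, cell surface proteins that bind collagen VI, were at 46.6 ± 6.90 and 102 ± 13.1 CPM in right and at 42.7 ± 4.39 and 105 ± 4.99 CPM in left eyes. Of 16 matrix partners 0 passed (median 0.03), and the leading members Dcn and Fmod, small proteoglycans of collagen fibrils, differed by 0.07 ± 0.08 and 0.08 ± 0.07 (log2, SE). None of these genes passed the animal test.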

How the data were processed

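RNA sequencing of 10 libraries (right and left eyes of 5 mice) was analysed. Per the labels' protocols, libraries were made from total RNA with a stranded kit after ribosomal RNA depletion. The values the authors deposited are normalized, and no source used here names the unit. The deposited values were read as CPM from the values alone: every library has a lowest value of 1e-04, taken as an added constant and removed, low values rise in regular steps that differ per library, and the listed genes hold 42.7% to 47.1% of the CPM total. STAR, Partek and the GRCm38 (mm10) build are named in the submitters' processing notes. Tool versions, the annotation and whether counting used strand were not given in the sources used here. Low values were whole multiples of a step (tolerance 0.05) in 88.7% to 89.8% of cases per library, which gave the implied depths but not whole reads. Floors in reads cover counting error only. Of 25686 genes matched to GENCODE M21, 99.4% of starts and 99.4% of ends (deposited stop minus 1) were equal, so its APPRIS principal transcript lengths were used, the longest where several shared the best rank. Coordinates are 1-based.

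Genes averaging 1 CPM or more were tested as log2(CPM + 0.230) with limma 3.58.1 in R 4.3.3 (linear model, intensity trend, animal and eye side as terms, Benjamini-Hochberg adjustment over 15414 genes). Fold changes on this scale understate those of low genes. The eyes of one animal are its fellow eyes, so animal numbers pair the libraries. The correlation of fellow eyes' deviations was 0.27, 0.11, 0.05, -0.19 and -0.05. Replicates are animals, and nothing says whether eyes were processed together. The tests were checked on simulated data. Figures used matplotlib 3.10.9 in Python 3.11.15.

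The genes, lists and tests were chosen with earlier results of these data known. The ciliary list, its form without Optc and the exon-length alternative were added after seeing the values. All 10 collagens, the 2 most abundant genes of each partner list and the 3 genes most like Col6a1, Col9a1, Col12a1, Col14a1 and Col16a1 (predicted loci apart) were to be named. Col6a5, Col6a4, Cspg4, Antxr1 and Col2a1 were named after their values were seen. Alternatives covered the animal block, pseudocount, filter, scaling, weights, robust moderation, tissue covariates and left-out animals and libraries.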

Additional observations from a re-analysis of the deposited data

Results flagged for a closer look

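Of 20 groups of 5 libraries (10 genes on each side), 3 held a library far from the others by Dixon's test at 95%. The test used CPM and not the log2 scale, and the groups of a side share their libraries. The count therefore cannot be set against the 1 in 20 that chance would give for independent groups. Col9a1 in left eyes was at 55.8 CPM in animal 65, against 11.7 to 23.1 CPM in the other left eyes, and its log2 difference was -0.60 without that eye. Col6a1 in left eyes was lowest in the same library, at 171 CPM, and its log2 difference was -0.08 without it. That library also had the lowest share of its CPM total on listed genes, 42.7%, against 44.2% to 47.1% in the others. The part of this share in the flagged values was not tested. Col14a1 in left eyes was highest in animal 68, at 127 CPM, and its log2 difference was 0.06 without that eye.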

How the results depend on the processing

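In all 27 alternatives limma called 0 genes between right and left eyes, and 0 of the 269 recomputed differences of the 10 genes passed, also with animals or libraries left out. Without the replicate block 0 genes were called and the estimates did not move, since each animal has both eyes. Where 1 eye is left out, the other eye of that animal adds nothing to the blocked difference. The directions of Col6a6, Col9a1, Col9a2, Col9a3 and Col12a1 held under all of these, but their sizes moved when animals were left out (Col6a6 -0.52 to -0.21, Col9a1 -1.38 to -0.41, Col9a2 -0.97 to -0.44, Col9a3 0.08 to 0.23 and Col12a1 0.09 to 0.22), and the other 5 genes changed direction. Sizes also moved with other settings. With the skeletal muscle covariate Col9a1 was at -1.24, Col9a2 at -0.85, Col6a6 at -0.21, Col9a3 at 0.18 and Col12a1 at 0.19. With array weights Col9a1 was at -0.76 and Col9a2 at -0.59. With TMM scaling Col6a1, Col6a2 and Col14a1 turned to 0.0101, 0.0129 and 0.0034, and with median-of-ratios scaling to 0.0091, 0.0119 and 0.0024. With array weights Col6a2 turned to 0.0057 and Col6a3 to -0.0080. With the skeletal muscle covariate Col6a1, Col6a2, Col14a1 and Col16a1 turned to 0.0021, 0.0305, 0.0852 and 0.0439, and with the stromal fibroblast covariate Col6a2 turned to 0.00040. With animals or libraries left out, Col6a1 ran from -0.0778 to 0.0686, Col6a2 from -0.0523 to 0.0595, Col6a3 from -0.0303 to 0.10, Col14a1 from -0.16 to 0.10 and Col16a1 from -0.11 to 0.0699. Col6a6, under 5 CPM on average, could not be tested with that filter. The animal test called 20 genes with array weights, 7 with the stromal covariate and 5 to 10 with animals or libraries left out, where fewer libraries entered, and never any of the 10 genes (smallest adjusted p = 0.382 in limma). The cause of the other changes was not tested.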
